A study of Mus musculus with 9 samples.

Results

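The 31 genes described here encode the enzymes that make nucleotides and were chosen by their symbols from a fixed list. No cutoff on their values was used, but the list was chosen with earlier results of these data known. All 31 were rows of a table of 24060 genes. They comprise 2 phosphoribosyl pyrophosphate (PRPP) synthetases, 6 genes of the purine ring pathway to inosine monophosphate (IMP), 6 of the branches to AMP and GMP, 6 of pyrimidine synthesis, 2 nucleoside diphosphate kinases, 3 subunits of ribonucleotide reductase and 6 that supply or clean up deoxynucleotides. RNA was sequenced from CD8 T cells of 3 clones (named R7-I, R7-II, R7-III), with 3 libraries labelled as biological replicates per clone. The clones came from transnuclear (TN) mice, lines made by transfer of the nucleus of a single Toxoplasma-specific CD8 T cell, so each line carries a single T cell receptor for the ROP7 peptide in its own receptor loci, on a Rag2-proficient BALB/c background. Splenocytes of every clone were cultured overnight in 10 ng/ml IL-2 and 10 µM of the ROP7 peptide, after which live CD3+ CD8+ cells that bound the H-2Ld-ROP7 tetramer were sorted to a stated purity of 90-95% on several sorters. The submitters rank affinity for the peptide as R7-I above R7-III above R7-II, and self-reactivity as R7-III above R7-I above R7-II. Each clone is 1 line derived from 1 cell, so clone, line and receptor cannot be told apart, and the sources used here do not give the age of the mice. No unstimulated cells were analysed, so the values compare activated clones with each other and not with a resting state.

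Cells make purines by building the ring step by step on PRPP until IMP is formed, and then branch to AMP and GMP; pyrimidines are built as a ring first, joined to PRPP to give UMP and aminated to CTP. Ribonucleotide reductase removes an oxygen from ribonucleoside diphosphates and is the entry to the deoxynucleotides from which DNA is copied, while thymidylate needs steps of its own. Resting lymphocytes make little of either, and activated T cells raise both routes before and during S phase.

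Levels are given as TPM, a share of all transcripts in a library corrected for gene length, as the authors estimated it. Differences are log2 fold changes on the log2(TPM + 1) scale with their standard errors, which understate the change of genes with few transcripts. A gene was called when its Benjamini-Hochberg adjusted p from limma, fitted to 11330 genes with a maximum TPM above 1 in all 9 libraries together, was under 0.01. Every one of the 31 genes passed that filter. Each clone enters 2 of the 3 comparisons, so these share libraries. The libraries of a clone correlated across genes at 0.992 to 0.997 and no 2 held identical values. TPM keeps no read depth, so no counting error can be given. TPM is a composition, and the median log2 fold change over all genes was 0.17 for R7-II relative to R7-I, 0.12 for R7-II relative to R7-III, and 0.045 where R7-III was compared with R7-I.

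Most enzymes of nucleotide synthesis had lower levels in R7-II than in either other clone. Against R7-I, 19 of the 31 genes were lower and 3 were higher, while 15.5% of all genes tested were called lower and 40.6% higher. Against R7-III, 24 genes were lower and 4 were higher, beside 18.0% and 35.6% of all genes. The 19 genes lower than in R7-I were also lower than in R7-III, which was so for 12.8% of all genes. Both Prps2 and Ctps2 were called higher in R7-II in both comparisons, as were 31.9% of all genes. Over the 31 genes, the median log2 fold change of R7-II was -0.25 from R7-I and -0.30 from R7-III. When each library was divided by its median-of-ratios factor, which takes the median of all genes close to 0, these medians were -0.42 and -0.43, and 24 and 26 of the 31 genes were lower against 28.5% and 27.8% of all genes. In bulk RNA, fewer cells of a type (such as cells in S phase) and less RNA per cell cannot be told apart. The R7-II libraries also held more RNA of B cell markers, 31.9 to 66.8 TPM in sum against 4.73 to 14.3 in the other 6, and the part of such cells in these counts was not tested.

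R7-III and R7-I differed in fewer of these genes. In R7-III, 9 of the 31 genes were higher (6.96% of all genes tested) and 2 were lower (1.45% of all genes), with a median of 0.11 over the 31. Of the 9 higher genes, 7 belong to the deoxynucleotide group: Rrm1, Rrm2, Tyms, Tk1, Dck, Dut and Dtymk. The others were Paics and Guk1. The 2 lower genes were Nme2 and Impdh1, and the call of Impdh1, at -0.21 ± 0.045 (limma, adjusted p = 0.00983), was lost when any of 7 single libraries was left out. The plot of fold changes by enzyme shows the 3 comparisons side by side.

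**Figure D1:**
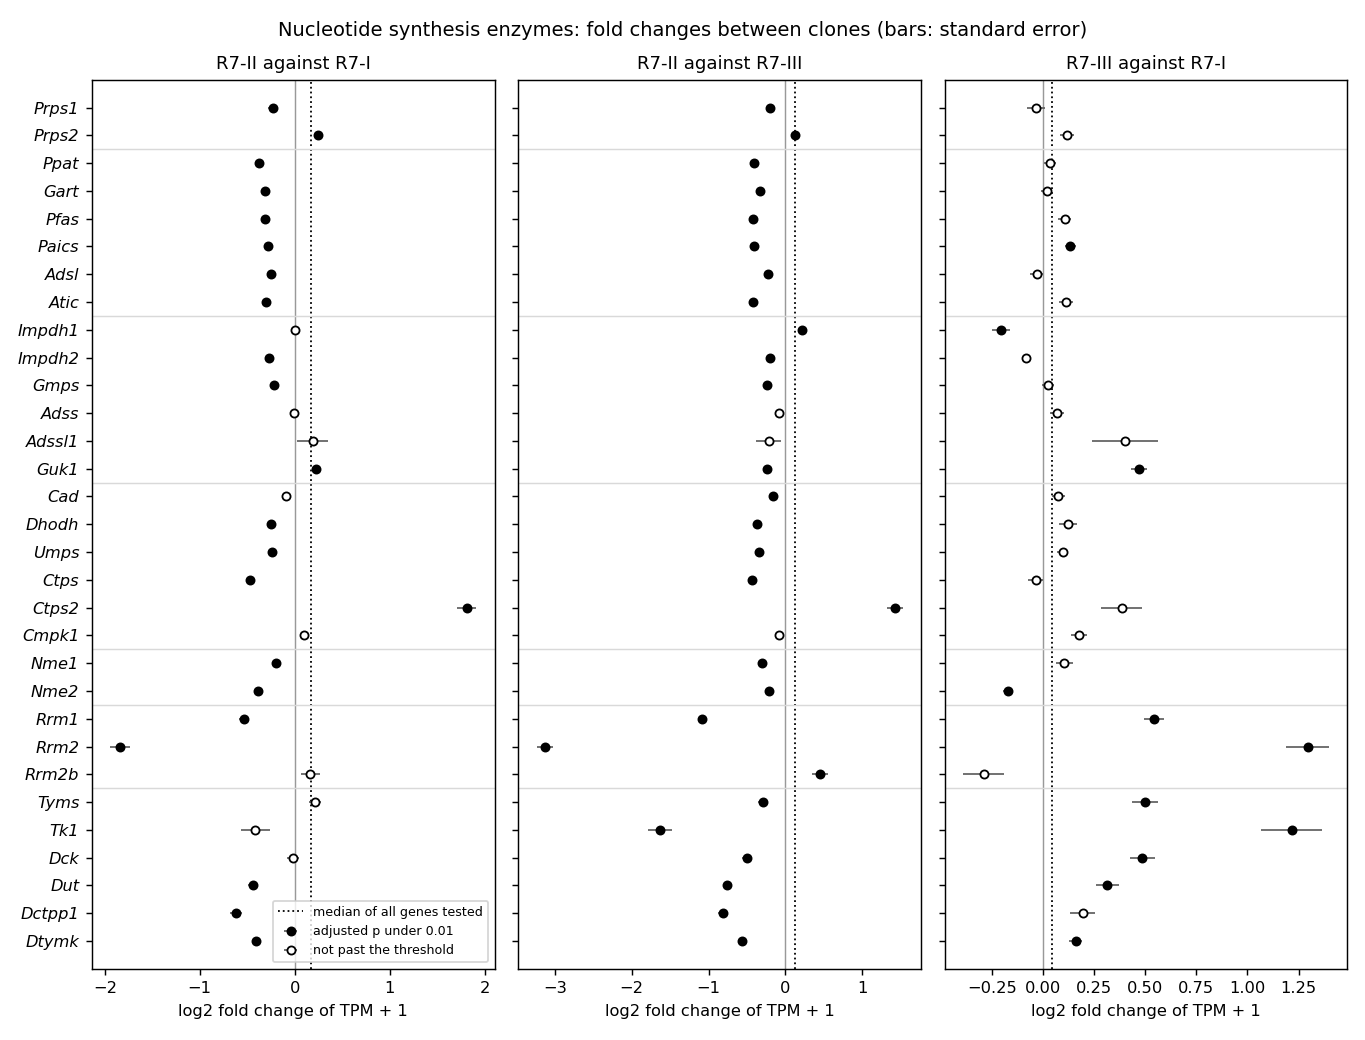
Each row is an enzyme gene, ordered by its step and parted by grey lines, and each panel a comparison; points are log2 fold changes of TPM + 1, bars are standard errors, filled points have an adjusted p under 0.01 and the dotted line is the median of all genes tested. The scale of the horizontal axis differs between panels. Rrm2 lies at -1.84 and -3.13 in the panels of R7-II and at 1.29 in that of R7-III against R7-I, and Ctps2 is the point far to the right in both panels of R7-II.

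The sum of the 31 TPM values was 5856 to 5972 in R7-I, 4813 to 4958 in R7-II and 5989 to 6081 in R7-III. R7-II libraries thus lay below all others, while R7-III libraries lay just above those of R7-I. Nme2 alone gave 1249 TPM or more in each library, so this sum mostly follows the ribonucleotide enzymes. A strict order without overlap, with every R7-II library below every R7-I library and every R7-I library below every R7-III library, was found for 11 of the 31 genes and for 5.80% of all genes tested. These were Pfas, Paics, Atic, Cad, Umps, Nme1, Rrm1, Rrm2, Dut, Dctpp1 and Dtymk. All R7-III libraries lay above the other 6 for 16 of the 31 genes, against 11.0% of all genes.

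PRPP, the activated sugar used by both ring pathways, is made by the paralogs Prps1 and Prps2, both on the X chromosome. Prps1 had 126, 125 and 129.6 TPM in the R7-I libraries, 103, 108 and 113 in R7-II and 119.8, 121 and 130.4 in R7-III. All R7-II values were below the other 6, with log2 fold changes of -0.23 ± 0.044 (limma, adjusted p = 7.57e-04) against R7-I and -0.20 ± 0.044 (limma, adjusted p = 0.00223) against R7-III. Of these genes, Prps1 shares a small part of its sequence: 3.48% of the 100-base windows of its transcript also occur in Prps1l3, between which reads could have been split. Prps2 had 45.8, 45.8 and 45.6 TPM in R7-I, 53.3, 53.9 and 55.5 in R7-II and 50.2, 49.6 and 49.2 in R7-III. Here R7-II was highest, at 0.24 ± 0.033 against R7-I and 0.12 ± 0.033 against R7-III. The medians over all genes in these comparisons were 0.17 and 0.12, and under median-of-ratios scaling the differences of Prps2 were 0.068 and 0.00054, neither of which was called. The call against R7-III was also lost when any of 7 single libraries was left out.

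All 6 genes of the purine ring pathway were lower in R7-II in both comparisons, with medians of -0.31 (R7-I) and -0.41 (R7-III), and each of these 12 calls held under both other scalings. Among all genes tested, 12.8% were called lower in R7-II in both comparisons. Ppat, the amidotransferase that commits PRPP to purines, had 98.5, 101 and 99.9 TPM in R7-I, 76.9, 75.8 and 76.7 in R7-II and 101, 103 and 103 in R7-III. Its R7-II libraries lay below the other 6, at -0.38 ± 0.028 against R7-I and -0.41 ± 0.028 against R7-III. Gart, a single protein that carries 3 of the steps, had 272 ± 3.09 TPM (SD, n = 3) in R7-I, 219 ± 4.88 in R7-II and 275 ± 3.74 in R7-III, and its R7-I and R7-III values overlapped. Pfas, the amidotransferase of the middle of the pathway, had 86.5, 87.97 and 87.8 TPM in R7-I, 68.96, 69.4 and 71.7 in R7-II and 93.8, 92.3 and 96.2 in R7-III. The R7-II mean of Pfas fell by 19.9% from that of R7-I and by 25.6% from that of R7-III. Paics, which adds carbon dioxide and then aspartate, had 263, 265 and 273 TPM in R7-I, 216, 223 and 221 in R7-II and 290.1, 292 and 298 in R7-III. It was the only ring gene also called between R7-III and R7-I, at 0.13 ± 0.026 (limma, adjusted p = 0.00635), a call lost under median-of-ratios scaling (0.084) and when any of 5 single libraries was left out. The genes Ppat and Paics lie head to head on chromosome 5 and their annotations overlap by 277 bases, with 4.46% of the Ppat windows and 7.26% of the Paics windows found in both, and the reads carried no strand. Adsl, the lyase used both here and in AMP synthesis, had the smallest difference of the 6 against R7-III, at -0.22 ± 0.032. Atic, which closes the ring, was at 210.1 TPM in R7-I, 169.7 in R7-II and 227 in R7-III, in the strict order named above.

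**Figure D2:**
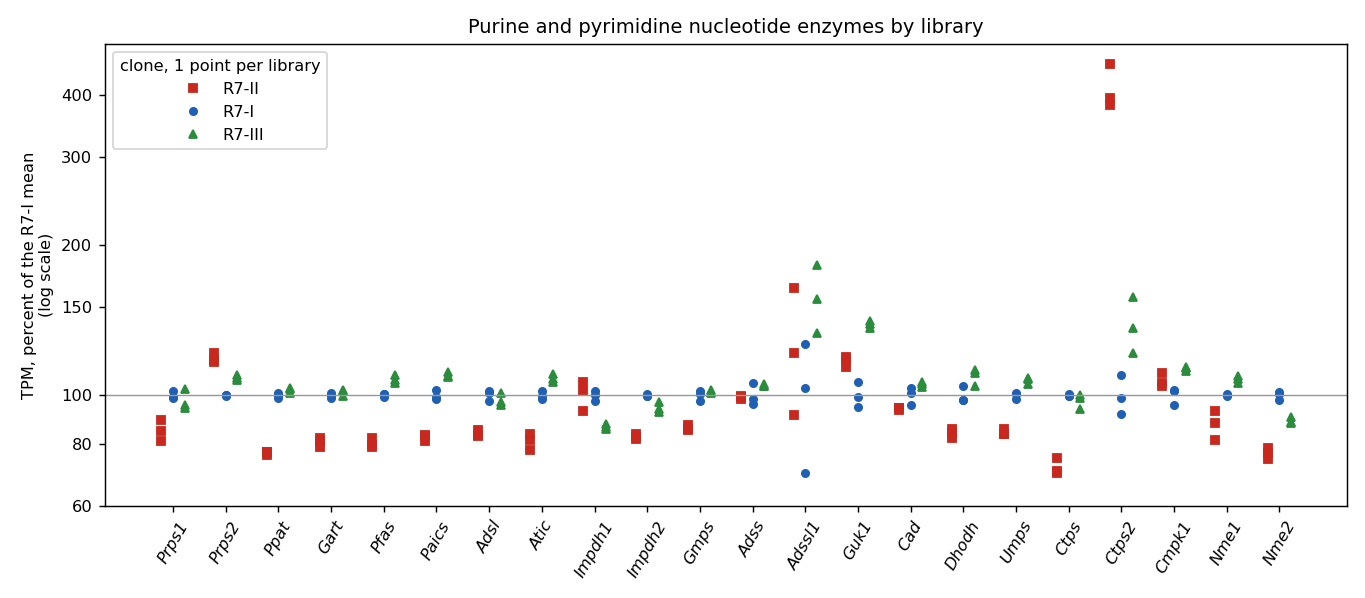
Levels of the 22 ribonucleotide enzymes in each library as percent of the R7-I mean of the same gene, on a log axis, with R7-II as squares, R7-I as circles and R7-III as triangles. The R7-II squares of the 6 ring genes from Ppat to Atic lie below both other clones, and those of Ctps2 lie far above.

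Nucleotide synthesis genes are known targets of Myc, which binds the E-box CACGTG. RefSeq promoter windows of GRCm38.p6, from 250 bases before to 50 after the annotated start, were at hand for 28 of the 31 genes, all but Pfas, Dhodh and Rrm2b. Searched on both strands, CACGTG was present in 6 of these 28 (21.4%), Paics, Atic, Impdh2, Nme1, Tyms and Dtymk, and in 8.91% of 17492 protein-coding genes. Those 17492 genes were counted whether or not they were expressed here. The following stretches, written in the direction of the gene with the E-box in capitals, show those matches that lie outside every annotated gene.
Atic, chr1:71557124-71557155, + strand: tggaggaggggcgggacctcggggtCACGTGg
Impdh2, chr9:108560301-108560356, + strand: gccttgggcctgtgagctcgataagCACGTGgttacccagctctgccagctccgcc
Nme1, chr11:93968273-93968315, - strand: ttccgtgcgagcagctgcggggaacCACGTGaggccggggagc
Tyms, chr5:30073656-30073711, - strand: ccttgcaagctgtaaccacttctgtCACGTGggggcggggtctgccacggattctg
The match in Atic lies directly before the start of the gene, whereas those of Impdh2 and Tyms lie further upstream. Of the 6 genes with the E-box, 5 were called lower in R7-II relative to R7-I and 6 relative to R7-III. Of the 22 without it, 12 and 16 were, beside 15.5% and 18.0% of all genes tested. The median log2 fold changes of the 6 genes with it were -0.28 and -0.36, and those of the genes without it -0.24 and -0.24. The matches are given as a description of the sequence, and no binding was measured. Whether Myc or the E-box bears on these levels was not tested.

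The branches from IMP were mixed. IMP dehydrogenase, the first step to GMP, is encoded by Impdh1 and Impdh2. Impdh2, the more abundant of them, had 642, 638 and 639 TPM in R7-I, 526, 536 and 523 in R7-II and 601, 593 and 619.9 in R7-III. All R7-II libraries were lowest, with -0.28 ± 0.024 against R7-I and -0.19 ± 0.024 against R7-III. Impdh1 had 139.8, 133 and 137 TPM in R7-I, 139.5, 127 and 145 in R7-II and 118, 117 and 119.9 in R7-III. R7-II overlapped R7-I and lay above R7-III, at 0.21 ± 0.045 (limma, adjusted p = 0.00178), a call lost under median-of-ratios scaling, where it was 0.085. Its difference between R7-II and R7-I changed sign with the scaling, from 0.0035 to -0.17 under median-of-ratios factors, where it was called lower. Gmps, which aminates XMP to GMP, was lower in R7-II in both comparisons, at -0.22 ± 0.031 and -0.24 ± 0.031.

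Guk1, the kinase that turns GMP into GDP, was the only one of the 31 genes called in different directions in the comparisons of R7-II. It had 127, 114 and 119 TPM in R7-I, 136, 141 and 143 in R7-II and 166, 169 and 163 in R7-III. The 3 clones did not overlap, with R7-I lowest and R7-III highest. R7-III exceeded R7-I by 0.47 ± 0.041 (limma, adjusted p = 5.78e-05). The call of R7-II above R7-I, at 0.23, was lost under median-of-ratios scaling, where it was 0.050. On the AMP side, Adss had 190.0 ± 9.69 TPM (SD, n = 3) in R7-I, 188 ± 1.36 in R7-II and 199 ± 0.677 in R7-III and passed in no comparison. The 95% intervals of its log2 fold changes were -0.089 to 0.065 for R7-II against R7-I and -0.16 to -0.0022 against R7-III. Under median-of-ratios scaling it was called lower in R7-II in both, at -0.19 and -0.21. Its paralog Adssl1, best known from muscle, stayed between 0.85 and 2.22 TPM in all 9 libraries, and R7-II overlapped both other clones.

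Of the 6 genes of pyrimidine synthesis, 3 were lower and 1 was higher in R7-II against R7-I, and 4 were lower and 1 was higher against R7-III. The shares of all genes tested were 15.5% lower and 40.6% higher against R7-I, and 18.0% and 35.6% against R7-III. Cad, the large protein with the first 3 activities, had 199, 210.1 and 216 TPM in R7-I, 196, 197 and 195 in R7-II and 220.0, 217 and 221 in R7-III. R7-II lay below the other clones, but only the difference from R7-III was called, at -0.16 ± 0.031 (limma, adjusted p = 9.60e-04). Against R7-I it was -0.087 ± 0.031 (limma, adjusted p = 0.0281), and it was called there under median-of-ratios scaling (-0.26) and without R7-I replicate 1 (-0.12). Dhodh, the mitochondrial dehydrogenase, and Umps, which makes UMP, were lower in both comparisons. Dhodh had 43.5, 36.4 and 47.4 TPM on average in R7-I, R7-II and R7-III, and Umps had 128, 108 and 136. Cmpk1, the kinase for UMP and CMP, was highest in R7-III, at 75.5 TPM, and passed in no comparison. Its difference between R7-II and R7-III, -0.079 ± 0.039, was called lower at -0.20 under median-of-ratios scaling and -0.14 after quantile normalization.

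The paralogs of CTP synthase, the last step of the pathway, moved in opposite directions. Ctps, on chromosome 4 (120539868 to 120570276, mm10), is the synthase that proliferating lymphocytes are known to depend on. It had 146, 147 and 145 TPM in R7-I, 102, 103 and 109 in R7-II and 144, 137 and 146 in R7-III. The R7-II libraries were lowest, at -0.48 ± 0.036 (limma, adjusted p = 1.31e-06) and -0.44 ± 0.036 (limma, adjusted p = 2.22e-06), and the other clones overlapped. Ctps2, on the X chromosome (162901268 to 163034541), had 4.01, 3.72 and 4.45 TPM in R7-I, 18.7, 15.5 and 16.1 in R7-II and 5.53, 6.39 and 4.94 in R7-III. Every R7-II library was more than 2-fold above every other library. The log2 fold changes were 1.81 ± 0.10 (limma, adjusted p = 1.92e-07) against R7-I and 1.43 ± 0.10 (limma, adjusted p = 8.77e-07) against R7-III, and the ratios of the mean TPM were 4.13 and 2.98. No 100-base window of either transcript was shared with the other. Xist was found in all 9 libraries, at a clone mean of 133 to 178 TPM, and Ddx3y, Eif2s3y and Kdm5d were at 0 in all of them.

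The nucleoside diphosphate kinases Nme1 and Nme2, which turn diphosphates into triphosphates for all bases, were the most abundant pair. Nme2 had 1644, 1703 and 1692 TPM in R7-I, 1285, 1249 and 1314 in R7-II and 1518, 1476 and 1484 in R7-III. Its clones did not overlap, and R7-I rather than R7-III was highest, with R7-III at -0.17 ± 0.026 against R7-I (limma, adjusted p = 0.00152). Nme1 had 606, 600.5 and 603 TPM in R7-I, 490.0, 561 and 531 in R7-II and 638, 649.8 and 658 in R7-III, and R7-II was lowest. After quantile normalization, Nme1 was no longer called between R7-II and R7-I, and Nme2 was called in no comparison.

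The 9 genes of the deoxynucleotide steps had larger median differences than the 22 of the ribonucleotide steps. The median log2 fold change was -0.42 against -0.24 for R7-II and R7-I, -0.75 against -0.23 for R7-II and R7-III, and 0.49 against 0.085 for R7-III and R7-I. These medians are a description of lists of unequal size.

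Rrm2, the small subunit of ribonucleotide reductase that is made in S phase and carries the radical, lies on chromosome 12 (24708254 to 24714146). It had 17.8, 19.3 and 21.1 TPM in R7-I, 3.87, 5.33 and 5.02 in R7-II and 49.03, 44.6 and 53.8 in R7-III. The 3 clones were far apart, with the highest R7-II library at 5.33 TPM and the lowest R7-III library at 44.6. This gave -1.84 ± 0.11 (limma, adjusted p = 2.20e-07) for R7-II against R7-I, -3.13 ± 0.11 (limma, adjusted p = 3.17e-08) against R7-III and 1.29 ± 0.11 (limma, adjusted p = 4.02e-05) for R7-III against R7-I. The mean TPM in R7-II was 0.244 of that in R7-I and 0.0965 of that in R7-III. Rrm1, the large subunit that binds substrates and regulators, had 75.3, 83.2 and 78.4 TPM in R7-I, 52.6, 57.5 and 52.2 in R7-II and 115, 112 and 119.7 in R7-III. It had the same order as Rrm2 with smaller steps, at -0.54 ± 0.049, -1.08 ± 0.049 and 0.54 ± 0.049, all called. The ratio of Rrm2 to Rrm1 TPM, computed after their values were seen, was 0.246 ± 0.0205 (SD, n = 3) in R7-I, 0.0875 ± 0.0122 in R7-II and 0.425 ± 0.0263 in R7-III, without overlap. Rrm2b, the small subunit that serves DNA repair and mitochondrial DNA outside S phase, had 6.06, 5.91 and 5.72 TPM in R7-I, 7.70, 5.62 and 7.01 in R7-II and 4.99, 4.49 and 4.46 in R7-III. R7-II lay above R7-III, at 0.45 ± 0.10 (limma, adjusted p = 0.00235), a call lost after quantile normalization (0.27) and without R7-III replicate 2 (0.43) or 3 (0.43), and R7-II overlapped R7-I.

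The promoter windows of Rrm1 and Rrm2 are shown because these subunits moved together in all 3 comparisons, a choice made on these values. Each of the 2 windows holds CCAAT, the box bound by NF-Y that is common in cell cycle promoters, here in capitals. Paics, Dut and Dtymk were called in the same directions in all 3 comparisons. The windows of Paics and Dtymk hold CCAAT and that of Dut does not.
Rrm1, chr7:102441579-102441633, + strand: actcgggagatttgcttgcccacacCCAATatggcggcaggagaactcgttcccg
Rrm1, chr7:102441625-102441679, + strand: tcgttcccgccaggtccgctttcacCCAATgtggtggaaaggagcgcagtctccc
Rrm2, chr12:24708179-24708233, + strand: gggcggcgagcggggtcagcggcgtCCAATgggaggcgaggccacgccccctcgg
CCAAT on either strand was found in 11 of the 28 windows (39.3%) and in 42.3% of protein-coding genes, shares close to each other. The E2F motifs TTTCGCGC and TTTGGCGC were in none of the 28 windows and in 1.21% of protein-coding genes, which says only that these letters are not within 250 bases before and 50 after the starts used.

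Thymidylate is made by Tyms or salvaged by Tk1. Tk1, thymidine kinase of S phase, had 6.27, 8.80 and 9.97 TPM in R7-I, 5.19, 7.41 and 5.32 in R7-II and 20.1, 21.2 and 19.9 in R7-III. R7-III was above both others, at 1.22 ± 0.15 (limma, adjusted p = 5.17e-04) against R7-I, while R7-II and R7-I overlapped and differed by -0.42 ± 0.15 (limma, adjusted p = 0.0305). That difference was called under both other scalings. Tyms had 16.6, 16.9 and 15.9 TPM in R7-I, 18.4, 18.3 and 21.01 in R7-II and 23.2, 22.7 and 25.1 in R7-III. Unlike Rrm1 and Rrm2, it was lowest in R7-I, but R7-II against R7-I, at 0.21 ± 0.064, was not called (limma, adjusted p = 0.0128). The median over all genes in that comparison was 0.17. R7-III was above both R7-I, at 0.50 ± 0.064, and R7-II, where R7-II against R7-III was -0.29 ± 0.064. The latter call was lost without R7-III replicate 3 (-0.24), and 3.92% of the Tyms windows occur in other genes. Dck, the salvage kinase for deoxycytidine, had 15.7, 16.1 and 16.7 TPM in R7-I, 16.2, 14.8 and 16.97 in R7-II and 22.6, 22.5 and 24.01 in R7-III. R7-I and R7-II overlapped, and the 95% interval of their difference was -0.15 to 0.12, whereas R7-III was higher than R7-I by 0.49 ± 0.06. R7-II was called lower than R7-I under both other scalings, at -0.18 with median-of-ratios factors and -0.27 after quantile normalization.

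**Figure D3:**
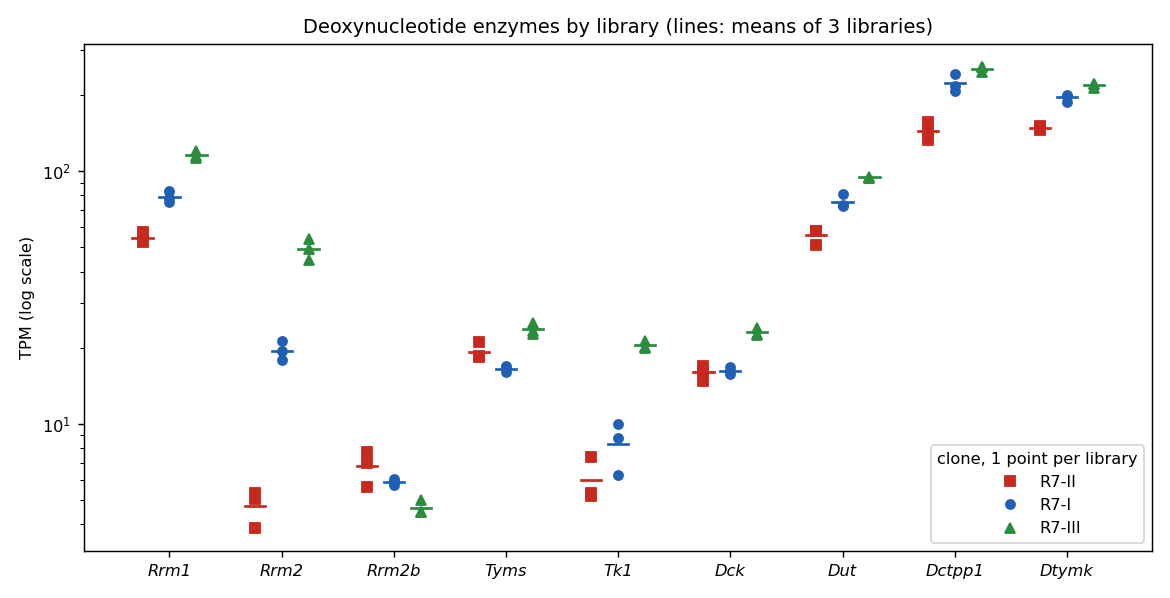
TPM of the 9 deoxynucleotide enzymes on a log axis, 1 point per library with lines at the means of 3 libraries, R7-II as squares, R7-I as circles and R7-III as triangles. Rrm2 runs from 4.74 TPM on average in R7-II to 49.1 in R7-III, whereas Rrm2b is lowest in R7-III.

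The enzymes that remove unwanted deoxynucleotides or finish dTTP showed the order of Rrm1 and Rrm2 without overlap. Dut, which hydrolyses dUTP, had 73.1, 72.7 and 81.1 TPM in R7-I, 50.98, 57.8 and 58.01 in R7-II and 93.96, 94.2 and 94.6 in R7-III. Its log2 fold changes were -0.44 ± 0.056, -0.75 ± 0.056 and 0.32 ± 0.056 in the 3 comparisons. Dctpp1, a pyrophosphatase for dCTP and its modified forms, had 217, 241 and 208 TPM in R7-I, 133, 156 and 144 in R7-II and 257, 258 and 247 in R7-III. R7-II was lower in both comparisons, at -0.62 ± 0.062 and -0.82 ± 0.062, and R7-III against R7-I, at 0.19 ± 0.062, was not called (limma, adjusted p = 0.0517). Dtymk, the kinase from dTMP to dTDP, had 195 ± 6.74 TPM (SD, n = 3) in R7-I, 147 ± 2.88 in R7-II and 218 ± 4.69 in R7-III. It was lower in R7-II in both comparisons, while its call between R7-III and R7-I (0.16) was lost without any of the 6 libraries of those clones, and that of Dut without any of 5, and both were lost under both other scalings.

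For enzymes with a paralog, the balance within a library hardly depends on how the library is scaled. In 4 of 6 pairs the R7-II libraries did not overlap the other 6 in the log2 ratio of TPM + 1. How often other pairs of genes set R7-II apart in this way was not counted, so 4 of 6 cannot be read as particular to these pairs. Calls of single genes are a different measure and give no such share. Among single genes, 40.6% were called higher and 15.5% lower in R7-II than in R7-I. Against R7-III these shares were 35.6% and 18.0%. Ctps gave 97.3% ± 0.251 (SD, n = 3) of the Ctps and Ctps2 sum in R7-I, 86.2% ± 1.47 in R7-II and 96.2% ± 0.597 in R7-III. Rrm2 gave 76.6% ± 2.05 of the sum with Rrm2b in R7-I, 41.3% ± 7.63 in R7-II and 91.3% ± 0.887 in R7-III. Thus Rrm2b exceeded Rrm2 in the R7-II libraries alone, where the share of Rrm2 was 33.5%, 48.7% and 41.7%. Prps1 gave 73.5% of its pair in R7-I, 66.5% in R7-II and 71.4% in R7-III, and Impdh1 gave 17.6%, 20.6% and 16.4%. For each of these 4 pairs a two-sided exact permutation test that set R7-II apart from the other 6 libraries gave p = 0.0238, the smallest that 3 against 6 allows, and an adjusted p of 0.0714 over the 12 tests made, which does not pass 0.05. Libraries that do not overlap always give this smallest p, so it adds nothing to the lack of overlap. The test also pools R7-I with R7-III and treats libraries of the same line as independent. Nme1 over Nme2 (exact permutation p = 0.619) and Adss over Adssl1 (exact permutation p = 0.929) overlapped. Between R7-III and R7-I no exact test can go below 0.1. There the share of Nme1 was 30.3% ± 0.625 in R7-III and 26.4% ± 0.460 in R7-I, without overlap.

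**Figure D4:**
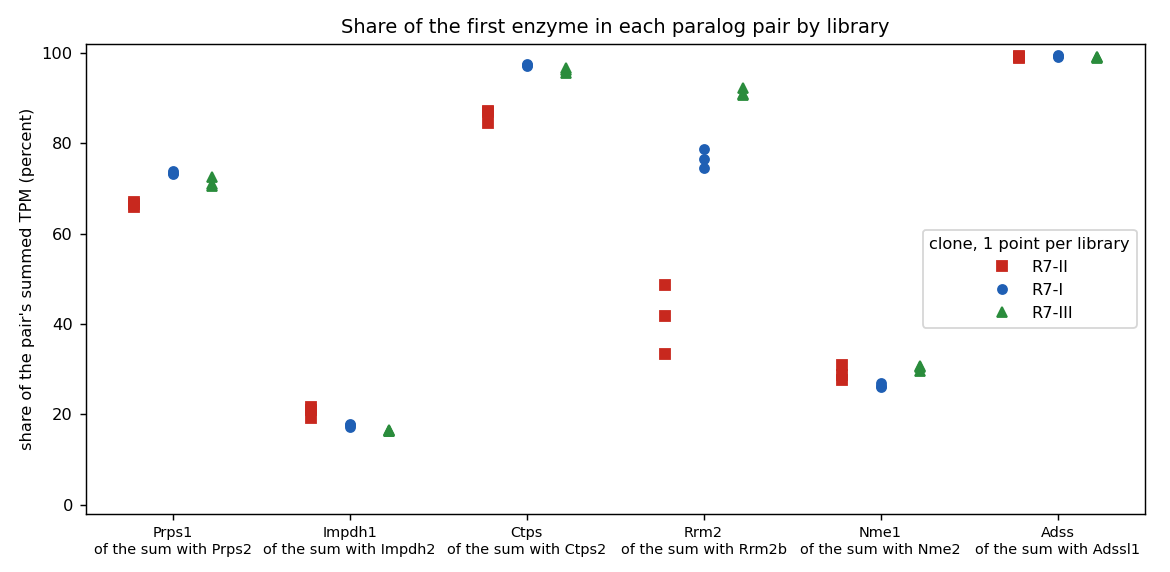
Share of the first enzyme in the summed TPM of each of 6 paralog pairs, in percent, 1 point per library, with R7-II as squares, R7-I as circles and R7-III as triangles. For Rrm2 the R7-II libraries lie between 33.5% and 48.7% and all others at 74.6% or more. For Adss all 9 libraries lie near the top.

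Other genes of nucleotide metabolism were called in both directions. Of all genes tested, 15.5% were lower and 40.6% higher in the comparison with R7-I, and 18.0% and 35.6% in that with R7-III. Of 10 genes of purine salvage, in R7-II 3 were lower and 2 higher than in R7-I, while 4 were lower and 1 higher than in R7-III. Of 7 pyrimidine salvage genes tested, 2 were lower and 2 higher in each of these comparisons. Among 14 tested genes of nucleotide breakdown, 5 were lower and 4 higher than in R7-I, and 6 were lower and 4 higher than in R7-III. Further kinases (10 tested) had 2 lower and 3 higher against R7-I and 2 lower and 4 higher against R7-III, and 4 nucleoside transporters had 1 lower and 2 higher, and 1 lower and 1 higher. On the log2(TPM + 1) scale, Samhd1, Ak7 and Slc28a2 were higher in R7-II by more than 2-fold in both comparisons. By the ratio of mean TPM, which does not damp low levels, 2 further genes passed that mark, named here after their values were seen. The adenylate kinase Ak4 was lower in R7-II, at 1.20 TPM against 2.64 in R7-I and 2.94 in R7-III, and the mitochondrial kinase Cmpk2 was higher, at 1.62 against 0.353 and 0.340.

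Samhd1 hydrolyses deoxynucleoside triphosphates, the reverse of what the reductase supplies. It had 31.6, 31.6 and 34.5 TPM in R7-I, 114, 157 and 156 in R7-II and 40.4, 41.5 and 44.2 in R7-III. All R7-II libraries were above the rest, at 2.08 ± 0.10 (limma, adjusted p = 9.55e-08) and 1.72 ± 0.10 (limma, adjusted p = 3.05e-07). Slc28a2, a concentrative nucleoside transporter, had 5.70, 7.15 and 6.28 TPM in R7-I, 28.6, 24.4 and 30.3 in R7-II and 4.81, 5.27 and 5.68 in R7-III. Ak7, an adenylate kinase known from cilia, was at 0.660, 3.39 and 0.437 on average in R7-I, R7-II and R7-III. Its R7-II libraries had 1.02, 5.01 and 4.13 TPM, so the first lay near the highest R7-I library, at 0.73.

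The replication genes of S phase are given beside the deoxynucleotide enzymes. Of 32 such genes, 29 were lower in R7-II than in R7-I, 31 were lower than in R7-III and 28 were higher in R7-III than in R7-I, with medians of -0.58, -0.99 and 0.42. The shares of all genes called in these directions were 15.5%, 18.0% and 6.96%. Of the 9 deoxynucleotide enzymes, 5 were lower, 8 were lower and 7 were higher in the same comparisons. The summed level of the 32 replication genes was 2642 to 2946 TPM in R7-II, 3825 to 4051 in R7-I and 5025 to 5217 in R7-III.

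B cell, MHC class II and myeloid markers were higher in R7-II. The summed level of 6 B cell genes was 31.9 to 66.8 TPM in R7-II, 7.66 to 14.3 in R7-I and 4.73 to 6.86 in R7-III, that of 5 MHC class II genes 101 to 168, 27.9 to 44.1 and 19.6 to 22.8, and that of 6 myeloid genes 17.6 to 70.3, 0.42 to 1.15 and 1.81 to 3.04. All 6 B cell, all 5 MHC class II and 5 of 6 myeloid genes were called higher in R7-II in each comparison. Of all genes tested, 40.6% were called higher than in R7-I and 35.6% higher than in R7-III. Cd4 did not exceed 1.0 TPM and the NK cell genes summed to at most 0.17. The sum of 2 erythroid genes was not higher in R7-II. It was 0 to 2.03 TPM in R7-II, 0 to 7.8 in R7-I and 0 to 22.5 in R7-III, and neither gene was called in any comparison. The 7 CD8 T cell genes found of 8 summed to 1821 to 1851 TPM in R7-I, 2671 to 2692 in R7-II and 1972 to 2045 in R7-III, so markers of the labelled cell type were present in all libraries. In R7-II replicates 1, 2 and 3, the B cell sums were 66.8, 31.9 and 51.1 TPM. The MHC class II sums were 168, 101 and 165, and the myeloid sums 34.7, 17.6 and 70.3. In the same order, Ctps2 had 18.7, 15.5 and 16.1 TPM and Samhd1 had 114, 157 and 156. The part of such other cells in the lower synthesis genes or in the higher Ctps2 and Samhd1 was not tested.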

How the data were processed

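RNA from 9 libraries of ROP7-activated, sorted CD8 T cells, 3 per clone, was analysed. The authors prepared poly(A) libraries, sequenced single-end reads without strand, used RSEM 1.2.11 for alignment and gene-level estimation (version per the submitters' processing notes) against RefSeq genes of mm10, and deposited TPM rounded to 2 decimals. Which aligner RSEM ran is not named in the sources used here. DESeq2 1.8.1 was run by the authors on counts, which were not used here. TPM has a fixed total per library, so a fall of some genes raises others and depth is unknown.

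From the TPM values, log2(TPM + 1) was fitted in R 4.3.3 by lmFit and eBayes (trend on) of limma 3.58.1 over the 11330 of 24060 genes with a maximum TPM above 1, all 9 libraries together, with Benjamini-Hochberg adjustment over all genes and a threshold of 0.01. The fit was tested on simulated data. Balances of 6 paralog pairs were compared by exact two-sided permutation tests (scipy 1.17.1, Python 3.11.15). Where nothing says that replicates came from separate mice, p-values measure the spread between these libraries only.

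The 31 genes, the other gene lists and the tests were chosen with earlier results of these data known. Every one of the 31 genes is given. Other nucleotide genes are named where called in both comparisons of R7-II with a fold over 2 on the log2(TPM + 1) scale in the same direction. Positions are RefSeq's for GRCm38.p6, promoter windows were read from the same source, and sharing of 100-base windows was counted on GENCODE transcripts. Alternatives were pseudocounts of 0.1 and 5, no filter, median-of-ratios and quantile scaling, no trend, only the clones compared, a replicate block, an adjusted p of 0.05 and each library left out. Unstimulated samples were not analysed here.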

Additional observations from a re-analysis of the deposited data

How the results depend on the processing

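Of 1764 fold changes of the 31 genes refitted under the alternatives, 1673 stayed on their side of the threshold (a few of those not called changed sign), 63 lost a call, 27 gained one and 1 was called with the opposite sign. That one was Impdh1 between R7-II and R7-I, at -0.17 under median-of-ratios scaling. For R7-II and R7-I, the number of genes higher in R7-II was 1 under median-of-ratios scaling and 5 at an adjusted p of 0.05, and 3 to 4 with each library left out. The number lower was 24 under median-of-ratios scaling and 19 to 21 with each library left out. Against R7-III, the number higher in R7-II was 2 under median-of-ratios scaling and 2 under quantile normalization, and 2 to 4 with each library left out (2 without R7-III replicate 2 or 3). The number lower was 26 under median-of-ratios scaling and 23 to 24 with each library left out. Between R7-III and R7-I, 15 genes were higher in R7-III at an adjusted p of 0.05, and 6 to 10 with each library left out. The number lower in R7-III was 1 with a pseudocount of 0.1, 1 with a pseudocount of 5, 1 without the filter, and 1 to 2 with each library left out. It was 0 in limma after quantile normalization and 0 in limma without the trend, where 3 and 4 genes had an unadjusted p under 0.05. The cause of these changes was not tested. The balances of the 4 pairs in which R7-II did not overlap the rest kept their direction under the pseudocounts and with each library left out. Those of Adss and Adssl1 and of Nme1 and Nme2, which did not pass, changed sign when some single libraries were left out, R7-II replicate 2 among them in both pairs.

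Same-numbered libraries showed no strong shared deviation (correlations of their deviations from the clone means between -0.045 and 0.089). This does not settle whether they were cultured, sorted or prepared together. With the replicate block, R7-II had 3 genes higher and 19 lower relative to R7-I and 3 and 24 relative to R7-III, and R7-III had 7 and 2 relative to R7-I. TPM gives no depth, so the precision of genes with few transcripts, such as Adssl1, Rrm2b and Rrm2 in R7-II, rests on 3 libraries alone.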
